A study of Mus musculus with 20 samples.

Results

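Mature luminal cells of the adult mouse mammary gland were described here through 4310 regions of open chromatin that set them apart from 3 other normal mammary cell types. These are all regions, on 19 autosomes and chromosome X, of a pair of deposited lists: 3282 UARs, which lie where mature luminal chromatin is more accessible, and 1028 URRs, which lie where it is less accessible. The labels do not expand these abbreviations. Together they make up 38.1% of the 11322 UARs and URRs of all 4 normal types. They were set against the pooled peak list of the mature luminal cells and the pooled lists of luminal progenitors, basal cells and fMaSC (fetal mammary stem cells).

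The normal cells were 8 of the 20 samples, with 2 samples per type, sorted by flow cytometry from wild-type C57BL6J mammary glands. The mature luminal, luminal progenitor and basal samples came from adults and the fMaSC samples from embryos at embryonic day 18, and no treatment is named for them. A separate measurement came from PY230, a mouse mammary tumour line transplanted into syngeneic C57BL6J mice: regions called open or closed in luminal SOX10-high cells (3 samples) set against luminal SOX10-low cells (3 samples). SOX10 is a transcription factor of the HMG-box family. Open chromatin was measured by ATAC-seq, in which a transposase cuts and tags accessible DNA. The lists are pooled over samples and hold no counts, so depth per sample is unknown, no value has a replicate error, and no test between cell populations could be made. Intervals below are exact 95% binomial intervals over regions. They cover counting error in a list, not variation between mice.

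Mature luminal cells line the inner layer of mammary ducts. They are the gland's hormone-sensing cells, carrying receptors for oestrogen, progesterone and prolactin, and they pass hormone signals to neighbouring cells by secreted factors. Luminal progenitors share the inner layer and give rise to milk-producing cells, and basal cells form the contractile outer layer. Cell-type-restricted open chromatin usually lies at enhancers, where lineage transcription factors bind. The files give positions in the mm9 build with no gene names, and no annotation of that build was used. The marker genes Pgr, Prlr and Foxa1 could therefore not be located, and the cell type label rests on the sort alone.

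The UARs were compact and the URRs somewhat wider. UARs had a median width of 1500 bp, ranged from 600 to 22000 bp and covered 5.61 Mb. URRs had a median width of 1700 bp, ranged from 700 to 16600 bp and covered 1.985 Mb. A single mature luminal peak lay in 2899 UARs, 2 peaks in 320 and at least 3 peaks in 61. Only 30 UARs and 8 URRs were wider than 5 kb. The widest UAR, on chromosome 3 from 121423701 to 121445700, held 9 mature luminal peaks, against 4 luminal progenitor, 2 basal and 3 fMaSC peaks. The widest URR, on chromosome 2 from 117938701 to 117955300, held 1 mature luminal peak, against 7 luminal progenitor, 4 basal and 10 fMaSC peaks. These widest regions were chosen after their values were seen.

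UARs were chosen from the same accessibility data as the peaks, so overlaps with normal peaks describe the lists and carry no test. Within the UARs, peaks of luminal progenitors were more frequent than those of basal cells or fMaSC. A peak was present in mature luminal cells alone in 1770 UARs (53.9%, interval 52.2 to 55.7%). Mature luminal cells and luminal progenitors shared another 736 UARs (22.4%, 21.0 to 23.9%) without basal or fMaSC peaks. Mature luminal and basal cells alone shared 41 UARs, and mature luminal cells and fMaSC alone shared 47. Among the 824 UARs with a peak in exactly 1 other type, that type was the luminal progenitor in 89.3% (87.0 to 91.4%). Basal or fMaSC peaks seldom appeared without one: of 462 UARs with an fMaSC peak, 118 held a luminal progenitor peak but no basal peak, and 275 held peaks of all 4 types. In another 271 UARs mature luminal, luminal progenitor and basal peaks met without an fMaSC peak. Only 22 had basal and fMaSC peaks without a luminal progenitor peak. Of all 61584 mature luminal peaks, 15778 had no peak of another type and 8267 had a peak of exactly 1 other type. Which type that was, was not counted over all mature luminal peaks. Whether the luminal progenitor share is particular to UARs was therefore not tested.

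**Figure D1:**
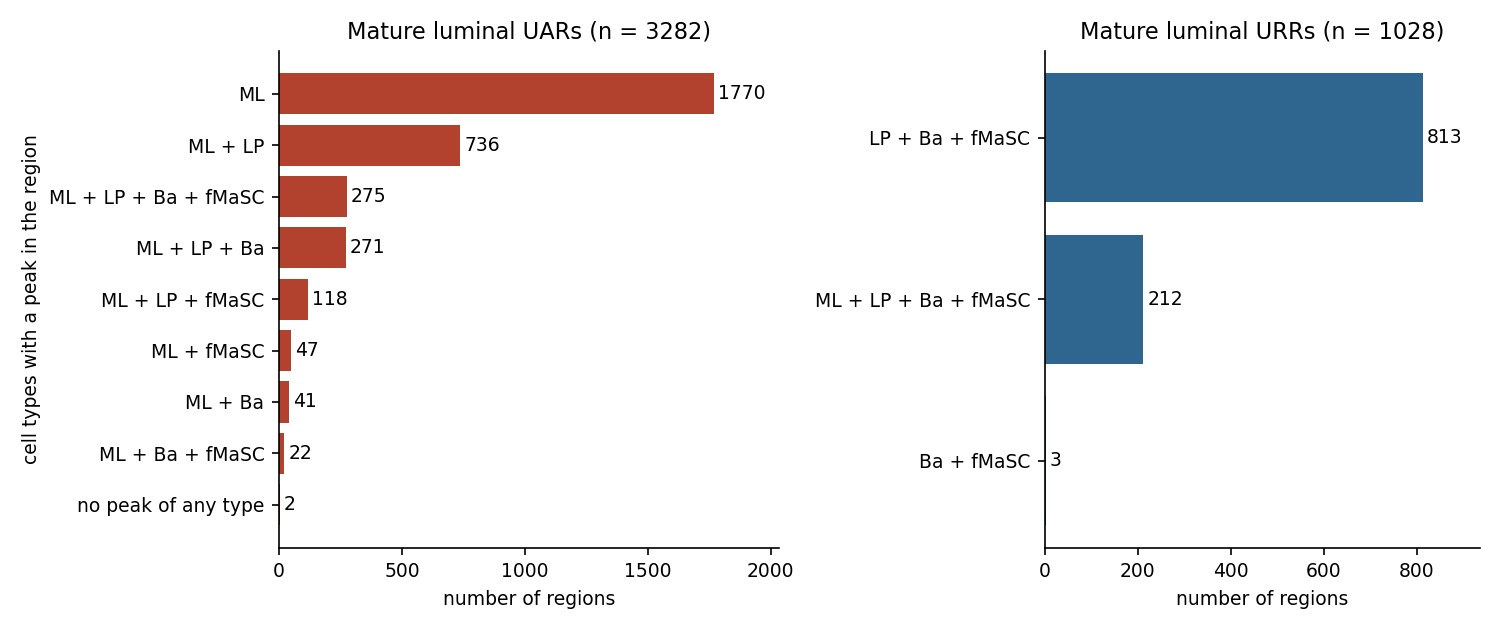
Numbers of mature luminal UARs (left) and URRs (right) by the normal cell types that had a peak in the region; ML is mature luminal, LP luminal progenitor and Ba basal. Peaks of mature luminal cells alone make the longest UAR bar, at 1770 regions, and 813 URRs hold peaks of the other 3 types and none of mature luminal cells.

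URRs were also chosen from these accessibility data, so the presence, strength and width of normal peaks in them carry no test either. They showed the mirror image with less variety. Peaks of luminal progenitors, basal cells and fMaSC were all present in 1025 of 1028 URRs (99.7%). This share was 57.9% when the peaks of each type had to cover at least 50% of the URR and 66.5% with the 30015 strongest peaks per type. Of the 1025, 813 (79.1% of URRs, interval 76.5 to 81.5%) had no mature luminal peak, and 212 (20.6%, 18.2 to 23.2%) had one. The remaining 3 URRs lacked a luminal progenitor peak and a mature luminal peak. They lay on chromosome 16 from 45936101 to 45937900, on chromosome 19 from 22874801 to 22876900 and on chromosome 5 from 40010901 to 40012500. No URR was found where only 1 other type had a peak, and every URR held a basal and an fMaSC peak.

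Where another type had a peak inside a UAR, it was at the same place and narrower. The authors' fold, a peak's enrichment over the background set by the peak caller, cannot be compared between separately called lists, so each peak was placed by its percentile within its own list. The strongest mature luminal peak of a UAR stood at a median of the 80.7th percentile of mature luminal peaks, with a median fold of 15.7 against 8.47 over the whole mature luminal list. The luminal progenitor peaks in 1400 UARs stood at a median of the 38.6th percentile of their list, the fMaSC peaks in 462 UARs at the 36.0th and the basal peaks in 609 UARs at the 29.3rd. Peaks of the other types in UARs were therefore mostly below the middle of their own lists. In 1397 of 1400 UARs with both, a luminal progenitor peak overlapped a mature luminal peak, and the centres of the strongest peaks were a median of 69 bp apart. The strongest luminal progenitor peak had a median of 0.445 times the width of the strongest mature luminal peak and was the narrower in 99.6% of these UARs. Basal peaks overlapped a mature luminal peak in 602 of 609 UARs and fMaSC peaks in 448 of 462, with width ratios to mature luminal of 0.394 and 0.344. Mature luminal peaks covered at least 50% of 76.1% of UARs, against 2.59% for luminal progenitor, 0.701% for basal and 0.0609% for fMaSC peaks.

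In URRs the mature luminal peak was the small one. Its median percentile was 28.0 over the 212 URRs that had one, against 73.1 for luminal progenitor, 78.3 for basal and 84.6 for fMaSC peaks. Mature luminal peaks covered at least 50% of 9 URRs, against 828 for luminal progenitors, 908 for basal cells and 725 for fMaSC. The strongest peak of the other type was wider than the mature luminal peak in these regions by a median factor of 3.06 for luminal progenitors, 3.44 for basal cells and 2.60 for fMaSC. In all 212 of these URRs a mature luminal peak shared sequence with a luminal progenitor peak. Where a UAR or a URR held peaks of mature luminal cells and of another type, these were thus nearly always overlapping peaks of unequal width.

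**Figure D2:**
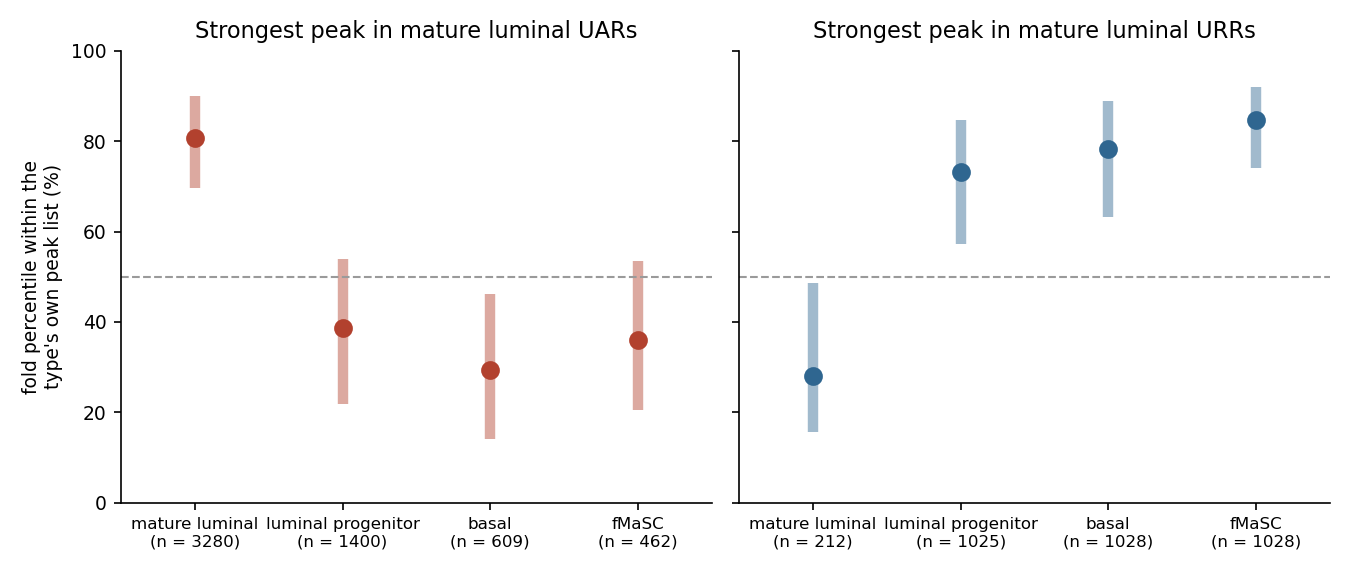
Percentile of the strongest peak of each cell type within that type's own peak list, in mature luminal UARs (left) and URRs (right) that held a peak of the type. Points are medians, bars run from the lower to the upper quartile, and the dashed line marks the middle of a list; in UARs the mature luminal median is 80.7 and in URRs it is 28.0.

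UARs were a small share of what was open in mature luminal cells. Of 61584 mature luminal peaks, 3769 lay in a UAR (6.12%). That share was 13.9% (interval 13.4 to 14.5%) of the 15778 mature luminal peaks with no peak in another type (32.5% with the strongest peaks of each list and 33.7% at or above the median fold), 10.6% with a peak in 1 other type, 5.06% with peaks in 2 and 0.927% with peaks in all 3. It also moved with the strength of the peak. In the 5 lowest deciles of mature luminal fold it ran from 1.299% to 2.53%. It was 8.23% in the seventh decile, 14.4% in the ninth and 13.3% in the highest. Of peaks found in no other type, 36.5% of 1269 lay in a UAR in the seventh decile, 70.1% of 859 in the eighth, 95.7% of 371 in the ninth and all 46 in the highest. Such peaks were rare at that strength, making up 43.0% of the lowest decile and 0.747% of the highest. Peaks shared with all 3 other types ran the other way, with 21.9% of the lowest and 86.0% of the highest decile. In all, 13584 peaks found in mature luminal cells alone were not in a UAR, and they were weaker and narrower. Their median fold was 5.98 and median width 376.5 bp, against 11.7 and 688.5 bp for the 2194 such peaks inside UARs.

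**Figure D3:**
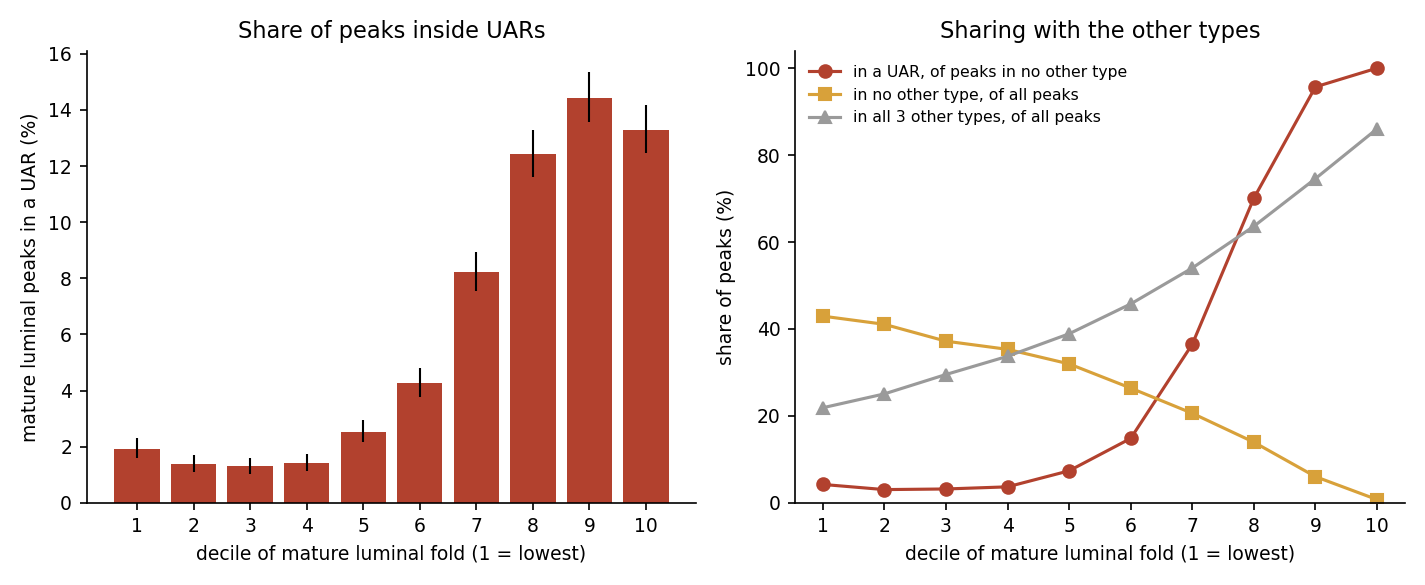
Mature luminal peaks by decile of the authors' fold. Left, share in a UAR with exact 95% binomial intervals, which runs from 1.299% to 14.4%; right, shares found in no other type, found in all 3 other types, and, of those found in no other type, lying in a UAR, which reaches all 46 peaks in the highest decile.

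URRs were likewise few among the sites they could have come from. Merging the luminal progenitor, basal and fMaSC peaks gave 36330 regions with a peak in all 3 types, of which 1072 lay in a URR (2.95%). Mature luminal cells had no peak in 8330 of them, and 856 of these 8330 (10.3%, interval 9.63 to 10.95%) lay in a URR. With the strongest peaks of each list this share of regions without a mature luminal peak was 22.0%, and with peaks at or above the median fold 17.9%. Of the 28000 with a mature luminal peak, 216 (0.771%) did. Most sites without a mature luminal peak were thus not listed as URRs.

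UARs differed among themselves with the company they kept. The score that ranks them has no stated scale. In the authors' deposited table it ran from 251.812 to 72176.3 for UARs, with a median of 1450, and from 270.169 to 28517 for URRs, with a median of 1650. UARs shared with luminal progenitors alone had a median score of 2434 in the authors' deposited table, against 1341 for UARs with a mature luminal peak alone and 823 for UARs with peaks of all 4 types. The last group had the strongest mature luminal peaks, with a median fold of 23.4, against 19.4 with luminal progenitors alone and 12.7 in mature luminal cells alone. Across 3280 UARs, score and mature luminal fold had a Spearman rho of 0.356, given as a description since all regions come from the same pooled libraries. Score and width had a rho of 0.00121 over 3282 UARs. Peaks of another type were present in 42.6%, 37.8%, 43.5% and 60.0% of UARs from the lowest to the highest quartile of score. In URRs, a mature luminal peak was present in 43.2%, 21.8%, 12.5% and 5.06% from the lowest to the highest quartile. The scores were deposited with regions chosen from the same accessibility data as the peaks. How the score went with the peaks therefore describes the lists and carries no test.

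Single regions show the range. The UAR with the highest score, on chromosome 2 from 73931201 to 73932300, held a mature luminal peak of fold 24.9 and a luminal progenitor peak of fold 4.99. The next, on chromosome 8 from 32766701 to 32768000, held a mature luminal peak of fold 22.4 and no other peak. The one after it, on chromosome 4 from 58254101 to 58254900, held a mature luminal peak of fold 19.2 and a luminal progenitor peak of fold 3.95, at the 6.37th percentile of its list. At the other end, the UAR with the lowest score, on chromosome 7 from 81552201 to 81556600, held mature luminal peaks with a highest fold of 22.2 and peaks of luminal progenitors, basal cells and fMaSC with folds of 13.9, 13.6 and 15.7. The next lowest, on chromosome 7 from 35589801 to 35592500 and on chromosome 16 from 30046901 to 30048500, also held peaks of all 4 types. The 3 lowest UAR scores in the authors' deposited table were 251.812, 280.864 and 291.47. Regions beyond that limit are not in the lists and were not analysed here. These 3 UARs just inside it had mature luminal peaks at or above the 92.9th percentile of their list.

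The URR with the highest score, on chromosome 7 from 136953401 to 136954600, held no mature luminal peak. It had a luminal progenitor peak of fold 3.95, a basal peak of fold 5.60 and an fMaSC peak of fold 10.1. The next, on chromosome 14 from 57915901 to 57917000, held a basal peak of fold 15.3, an fMaSC peak of fold 8.36 and a luminal progenitor peak of fold 4.57. That on chromosome 6 from 82949701 to 82951200 held an fMaSC peak of fold 25.1, a basal peak of fold 21.1 and a luminal progenitor peak of fold 7.90. None of the 3 had a mature luminal peak. The URRs of lowest score lay on chromosome 13 from 112725801 to 112728100, chromosome 17 from 86086001 to 86089700 and chromosome 10 from 6239801 to 6241100. Mature luminal peaks were present in the first and last of these, with folds of 7.22 and 5.48. The 3 lowest URR scores in the authors' deposited table were 270.169, 270.703 and 290.72.

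A pair of UARs held no peak of any normal type. These lay on chromosome 11 from 72997301 to 73002100 and on chromosome 5 from 113695201 to 113698300, with widths of 4800 and 3100 bp. Neither was in the PY230 lists.

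Overlaps of mature luminal UARs with the lists of the other normal types were few, as they were for mature luminal peaks in general. No UAR overlapped a UAR of luminal progenitors, basal cells or fMaSC, and none overlapped a URR of luminal progenitors or basal cells. Over all mature luminal peaks these shares were 0.107% for the 306 luminal progenitor UARs, 1.81% for the 5144 basal UARs, 0.125% for the 1222 fMaSC UARs, 0.0471% for the 27 luminal progenitor URRs and 0.128% for the 71 basal URRs. Each UAR list holds regions more accessible in a single type than in the others. A count of 0 between UAR lists thus largely follows from that choice and is no result. For the URRs of luminal progenitors and basal cells, the exact interval for 0 of 3282 UARs ends at 0.112%. It takes in the 0.0471% of mature luminal peaks for luminal progenitor URRs. For basal URRs it ends just below the 0.128% of mature luminal peaks. The only overlaps were with URRs of fMaSC, in 5 UARs (0.152%). This share was below the 0.471% of all mature luminal peaks that overlapped an fMaSC URR. The 5 UARs coincided with 2.07% of the 242 fMaSC URRs. They lay on chromosome 1 from 40598901 to 40600300, chromosome 2 from 11461401 to 11463100, chromosome 5 from 124277201 to 124278600, and chromosome 6 from 31056101 to 31058900 and from 108108301 to 108109900. Each held mature luminal, luminal progenitor and basal peaks and no fMaSC peak, and their mature luminal folds ran from 18.2 to 32.6. At these sites all adult types had a peak, with the mature luminal one at the 86.4th percentile of its list or higher.

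URRs crossed with the UARs of 2 other types. Basal UARs coincided with 34 mature luminal URRs (3.31% of URRs and 0.661% of the 5144 basal UARs), and fMaSC UARs with 11 (1.07% of URRs and 0.900% of the 1222 fMaSC UARs). None overlapped a luminal progenitor UAR. Of the 36330 regions with a peak in all 3 other types, 3.12% overlapped a basal UAR, 0.352% an fMaSC UAR and 0.11% a luminal progenitor UAR. The basal share of URRs was therefore near this background, and the fMaSC share rested on 11 regions. Each UAR list was chosen for higher accessibility in its own type. Stronger peaks of that type, and weaker peaks of the others, largely follow from this choice and are no result. In the 34 regions the basal peak had a median fold of 19.8, against 15.1 over all URRs. In the 11 regions the fMaSC peak stood at a median of the 98.7th percentile of its list, against 84.6 over all URRs, and the basal peak at 47.7, against 78.3. A basal UAR lay within 100 kb of 50.3% of URRs (interval 47.2 to 53.4%) and 33.2% of UARs (31.6 to 34.8%). The URR share was also the higher one for fMaSC UARs (12.1% and 9.11%), luminal progenitor UARs (4.96% and 2.04%) and regions with a peak in all 4 types (88.3% and 82.4%). Regions that coincide with a URR or UAR are counted as within that distance. These include the 34 URRs in a basal UAR, while no UAR overlapped one. Every URR also held a basal peak, against 18.6% of UARs. The shares were not counted over all mature luminal peaks or all regions of the 3 other types. Whether the differences go beyond how the lists were chosen was not tested.

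Few UARs had a URR nearby, and the URR list is short. A URR was found within 10 kb of 19 UARs (0.579%) and within 100 kb of 261 (7.95%). The same shares were not counted over all mature luminal peaks. Whether UARs and URRs lie apart from each other was therefore not tested. Other UARs were closer, with a median gap from a UAR to the next of 131.8 kb, against 871 kb from a UAR to the nearest URR. Since there are about 3 UARs for every URR, the gaps do not compare like with like. Within 10 kb of one another, UARs formed 180 chains, of which 17 had 3 or more members and 2 had 4. The chains of 4 spanned chromosome 1 from 121161501 to 121177200, where mature luminal folds ran from 7.47 to 19.9 and 1 of 4 was closed in PY230 SOX10-high cells, and chromosome 8 from 12930601 to 12952900, where 3 of 4 were. URRs formed 30 such chains, 1 of them with 3 members, on chromosome 2 from 167630901 to 167638400.

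Over larger distances, the densest windows of 1 Mb held 13, 12 and 12 UARs. They began at 35091650 on chromosome 8, 162927500 on chromosome 2 and 25897900 on chromosome 14. Of their mature luminal peaks, 19.1%, 19.4% and 24.4% lay in a UAR, against 6.12% over all mature luminal peaks, a direction fixed by choosing windows rich in UARs. In PY230 SOX10-high cells, 12 of 13 UARs were closed in the window on chromosome 8 and 12 of 12 in that on chromosome 2. In the window on chromosome 14, 3 of 12 were. Over all UARs the closed share was 83.1%. Only the UARs were counted here, not the rest of each window. The densest windows of URRs, with 7, 6 and 6 members, began at 194625000 on chromosome 1, 81274400 on chromosome 4 and 58788350 on chromosome 15. In the first, mature luminal cells had 32 peaks, against 50 in luminal progenitors, 78 in basal cells and 91 in fMaSC, and in the second 31, against 55, 88 and 77. In the third they had 78, against 79, 96 and 70, and thus more than fMaSC. The lists differ in length, so these counts are given as a description.

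A region with a peak in all 4 types lay within 10 kb of 34.4% of UARs (interval 32.8 to 36.1%) and 44.5% of URRs (41.4 to 47.5%). For mature luminal peaks found in no other type and outside UARs it was 34.1% (33.3 to 34.9%). For mature luminal peaks outside UARs with peaks in 1 or 2 other types it was 48.2% (47.4 to 48.9%). The UARs, of which 46.0% held a peak of another type, were close to the first of these values and below the second. These sets are not alike, since members that overlapped a region with all 4 types counted as near it. Peaks of all 4 types lay inside 275 UARs and 212 URRs. The sets of mature luminal peaks had peaks of no more than 2 other types. Whether the shares differ apart from this was not tested.

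Every chromosome carried more UARs than URRs, and chromosome X carried few of either. UARs numbered 31.4 per 1000 mature luminal peaks on chromosome X, where there were 42, and between 42.9 (chromosome 19) and 64.8 (chromosome 6) per 1000 on the autosomes. URRs numbered 7.59 per 1000 regions with a peak in all 3 other types on chromosome X, where there were 6, and between 17.7 (chromosome 7) and 44.5 (chromosome 16) on the autosomes. Chromosomes also differed in the balance of the lists, with 1.90 UARs per URR on chromosome 19, 5.79 on chromosome 5 and 7 on chromosome X. The sex of the animals is not stated in the labels used here.

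**Figure D4:**
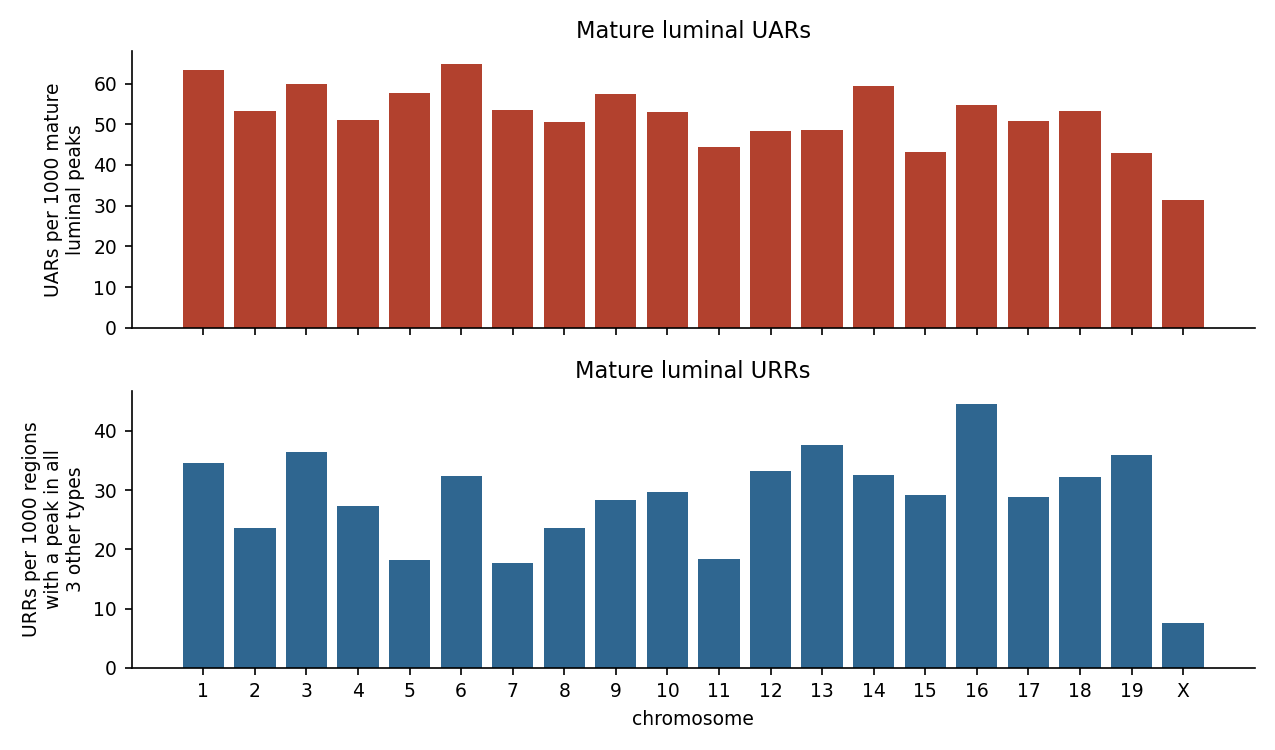
Mature luminal UARs per 1000 mature luminal peaks (top) and URRs per 1000 regions with a peak in luminal progenitors, basal cells and fMaSC (bottom) on each chromosome. Chromosome X has the lowest bar in both panels, at 31.4 UARs and 7.59 URRs.

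The PY230 lists come from other samples and took no part in choosing the members. They asked how the sites of normal mature luminal cells fared in tumour cells with high SOX10. Of 61584 mature luminal peaks, 21.6% were closed and 0.391% open in SOX10-high cells. Of 3282 UARs, 2728 were closed (83.1%, interval 81.8 to 84.4%) and 1 was open. The closed regions covered a median of 81.8% of the UAR, and at least 50% of it in 93.7% of closed UARs. UARs were closed more often than all mature luminal peaks of the same chromosome on 20 of 20 chromosomes, with shares between 73.9% (chromosome 4) and 92.3% (chromosome 12) and background shares between 14.1% and 25.3%. UARs are wider than single peaks, with median widths of 1500 and 561 bp, and so have more room to touch a closed region. Counted as mature luminal peaks, 79.15% inside UARs and 17.85% outside were closed. Most closed regions nonetheless lay outside UARs: 2786 of 15108 (18.4%) lay in one. Of the 12557 closed regions that held a mature luminal peak, 22.1% lay in a UAR. Of all mature luminal peaks 6.12% did, counted per peak and not per closed region. Closed regions in UARs had a median score of 321 in the authors' deposited table, against 103 for closed regions outside UARs.

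The closed share was higher inside than outside UARs at each level of sharing with other types. Mature luminal peaks found in no other type were closed in 78.4% of cases inside UARs (interval 76.6 to 80.1%) and 37.0% outside (36.2 to 37.9%). With a peak in 1 other type the shares were 85.1% inside and 26.1% outside, with 2 they were 80.7% and 18.5%, and with all 3 they were 63.3% (57.3 to 69.1%) and 6.54% (6.25 to 6.83%). Counted over all levels of sharing, strong peaks showed the widest gap. In the highest decile of fold, 83.4% of 819 peaks inside UARs and 6.76% of 5340 outside were closed. Of all peaks in that decile, 86.0% were shared with all 3 other types. None of those outside UARs was found in mature luminal cells alone. In the lowest decile 34.5% of 119 peaks inside UARs and 11.5% of 6040 outside were closed. Among peaks found in mature luminal cells alone and outside UARs, the closed share was 19.8% in the lowest decile and 58.9% in the sixth. It was 72.4% in the eighth, where 257 peaks were left. All UAR peaks were closed in 82.8% in the sixth and 83.5% in the eighth. For these peaks the gap was thus narrower in the eighth decile than in the sixth. Whether the gap at high fold goes beyond the mix of shared peaks was not tested. No sample values were available to test these differences.

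**Figure D5:**
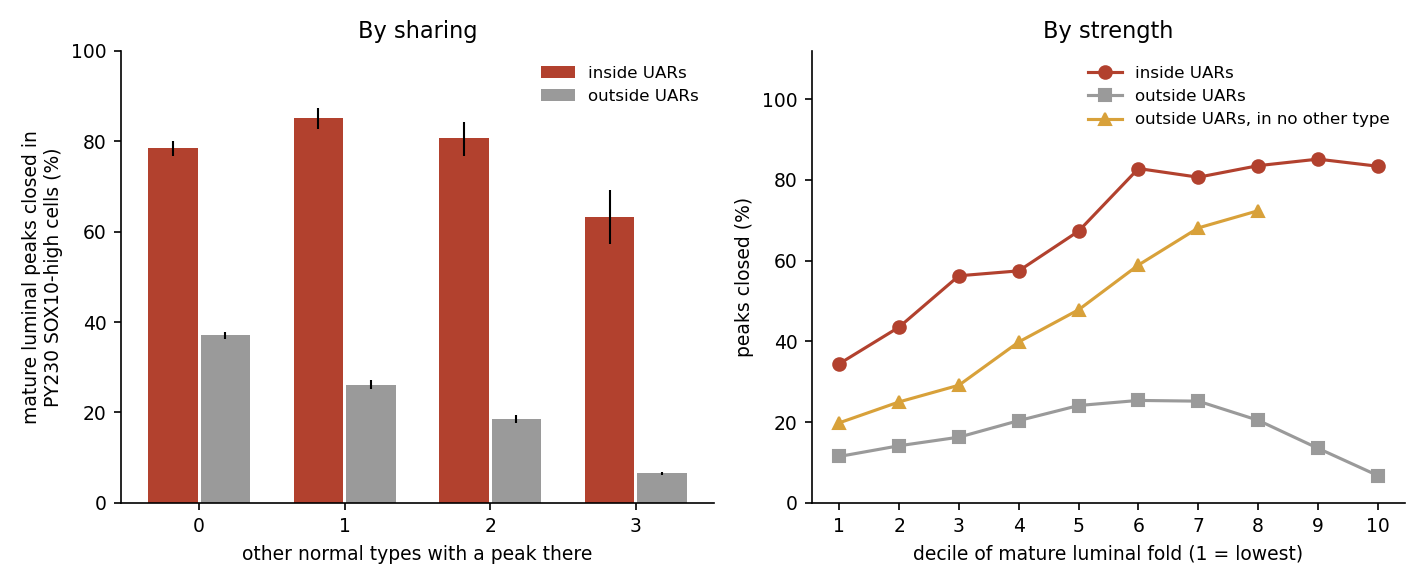
Share of mature luminal peaks closed in PY230 luminal SOX10-high cells against SOX10-low cells, inside and outside UARs. Left, by the number of other normal types with a peak, with exact 95% binomial intervals; right, by decile of mature luminal fold, with peaks in no other type shown where at least 20 were left. Inside UARs 83.4% are closed in the highest decile, and outside 6.76%, where no peak of mature luminal cells alone was left.

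Within the UARs, the closed share was higher at higher score and lowest where all 4 types had a peak. It was 74.2%, 82.0%, 86.1% and 90.3% from the lowest to the highest quartile of score. The intervals of the lowest (71.0 to 77.1%) and highest (88.0 to 92.2%) quartiles did not overlap. UARs shared with luminal progenitors alone were closed in 87.8% (85.2 to 90.0%), UARs of mature luminal cells alone in 83.4% of 1770 and UARs with peaks of all 4 types in 68.0% (62.1 to 73.5%). The 554 UARs that were not closed had a median mature luminal fold of 14.7, against 15.9 for closed UARs, and 15.9% of them had peaks of all 4 types, against 6.86%. The one UAR open in SOX10-high cells, on chromosome 2 from 80675801 to 80677200, held mature luminal, luminal progenitor and fMaSC peaks with folds of 28.1, 6.24 and 11.9.

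URRs were more often open than closed. Of 36330 regions with a peak in luminal progenitors, basal cells and fMaSC, 1.59% were open and 5.8% closed in SOX10-high cells. Of 1028 URRs, 114 were open (11.1%, interval 9.23 to 13.2%) and 2 closed. The open regions covered a median of 100% of the URR. URRs without a mature luminal peak were open in 101 of 816 cases (12.4%, 10.2 to 14.8%) and URRs with one in 13 of 212 (6.13%, 3.30 to 10.3%), so the intervals overlapped slightly. Outside URRs, regions with peaks in the 3 other types were open in 4.80% (4.33 to 5.31%) of 7474 cases without a mature luminal peak and in 0.363% of 27784 cases with one. The absence of a mature luminal peak thus went with a higher open share outside URRs, and the share was higher again inside them. Unlike closing of UARs, opening of URRs did not follow the score: 10.9%, 11.3%, 10.5% and 11.7% were open from the lowest to the highest quartile. By chromosome, the open share of URRs was above that of regions with all 3 other types on 19 of 20 chromosomes, the exception being X with none of 6. It ran from 1.49% of 67 URRs on chromosome 2 to 28.9% of 38 URRs on chromosome 19. With 114 open URRs over 20 chromosomes, the share of each chromosome rested on few open regions.

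Both closed URRs held a mature luminal peak. The first was the widest URR, on chromosome 2, whose mature luminal peak had a fold of 16.4 and covered 8.36% of the region. The second, on chromosome 18 from 7000901 to 7006400, had a mature luminal peak of fold 4.23 covering 9.76%. Open regions inside URRs numbered 115 of the 3208 open regions (3.58%). Their median score was 56.3 in the authors' deposited table, against 44.1 for open regions outside URRs.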

How the data were processed

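Nuclei of sorted mouse cells were profiled by ATAC-seq with a Nextera transposase and paired-end Illumina HiSeq sequencing, per the labels' protocols. Builds and tools were taken from the submitters' processing notes, which give them without roles: the genome was mm9, and the tools were SICER, MACS2 (2.1.1), Bowtie (0.12.8), FastQC, bedtools (2.20.1) and SAMtools (1.3.1). How duplicates, repeats and Tn5 offsets were handled, which sets the peaks that exist, was not given in the sources used here. Per the list names, the authors called peaks on both samples of a type together at a q-value of 0.001, and each deposited peak carries a fold, a ratio of enrichment over background. Each UAR, URR and PY230 region carries a score deposited by the authors, whose scale is not given. How these regions were called is not given, and they lie on a 100 bp grid, so 1 base was added to give 1-based positions. Peak lists were kept as deposited. Each holds 3 mitochondrial peaks, which were left out.

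Overlap means at least 1 shared bp. Shares have exact (Clopper-Pearson) 95% binomial intervals, percentiles rank a peak's fold in its own list, and gaps are from edge to edge. No test was made, because the lists hold no values per sample. Named regions were the 3 of highest and of lowest score per list, the 3 densest 1 Mb windows, and each region of a cross that held 5 or fewer. Members, lists and rules were chosen with earlier results of these data known. Planned gene lists and motifs needed an mm9 annotation or genome and were not analysed here. Other settings tried were coverage of at least 50% of a region, the 30015 strongest peaks per type, peaks at or above the median fold, regions set to 500 bp, autosomes only, and neighbour distances of 5 and 50 kb. Overlap functions were tested on simulated data against bedtools 2.31.1. Python 3.11.15, numpy 2.4.6, pandas 2.3.3, scipy 1.17.1 and matplotlib 3.10.9 were used.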

Additional observations from a re-analysis of the deposited data

How the results depend on the processing

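Shares over autosomes only stayed inside the exact intervals of the values reported. Peaks of another type lay in 46.0% of UARs, and in 2.86% when 50% or more of the region had to be covered, 14.1% with the 30015 strongest peaks of each type, 15.9% with peaks at or above the median fold and 40.9% with regions set to 500 bp. A mature luminal peak lay in 20.6% of URRs, and under the same 4 settings in 0.875%, 4.67%, 4.86% and 15.9%. The share of mature luminal peaks in a UAR was 10.7% with the strongest peaks, 10.5% at or above the median fold and 5.33% with 500 bp regions. The share of regions of the 3 other types in a URR was 4.14% with the strongest peaks and 4.11% at or above the median fold. UARs were closed in PY230 SOX10-high cells in 77.9% with at least 50% covered and 77.5% at 500 bp. URRs were open in those cells in 10.6% with at least 50% covered and 9.44% at 500 bp. The share of UARs with another within reach was 7.53% at 5 kb and 31.2% at 50 kb, and that of URRs 3.99% and 18.4%. Luminal progenitors were the type most often found in UARs under all settings tried, while basal cells led fMaSC with all peaks (18.6% and 14.1%) but not with the strongest peaks (1.92% and 2.35%). With the strongest peaks, UARs holding a peak of another type were closed in 72.6%, against 84.9% of UARs holding none, where all peaks gave 82.9% and 83.3%. The shares were 72.7% and 85.1% at or above the median fold, and 56.4% of 94 and 78.5% with at least 50% covered. At 500 bp the order turned, to 78.3% and 76.9%. Why the values moved was not tested. No paired analysis was possible because the lists are pooled over samples, and for the same reason no sample could be left out. Depth is unknown, so a missing peak shows only that none was called.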
